A study of Mus musculus with 9 samples.

Results

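Transcripts of 38 genes for DNA repair and the DNA damage checkpoint were followed in mouse neural stem cells with lowered Rad21, the kleisin that closes the cohesin ring. The 38 symbols were a set list of genes for homologous recombination, the Fanconi anaemia pathway, mismatch repair, end joining and checkpoint signalling. All 38 are in the count table of 24503 genes, and all 38 were among the 13560 genes with enough counts to be tested. The cells were primary neural stem cells from the cortex of E13.5 mouse embryos. They were grown as neurospheres and then on laminin (5 µg/mL) with FGF (10 ng/mL) and EGF (20 ng/mL). All 3 groups carried the floxed Phf2 alleles (Phf2flox/flox), described as wild type, and no Cre is named in the labels. Each group of 3 libraries received virus with a different short hairpin RNA: a non-targeting control (shNT), shRad21 #1 (shRad21_1) or shRad21 #2 (shRad21_2). The labels give no time after infection and do not say whether the libraries of a group came from separate cultures or embryos, so the p-values reflect only how far libraries vary, possibly for technical reasons.

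Breaks through both DNA strands are mended mainly by homologous recombination or by end joining. In homologous recombination the ends are trimmed back, BRCA1, BRCA2 and PALB2 prepare them for strand exchange, and the sister chromatid, which cohesin holds nearby, serves as the template. In end joining the Ku proteins capture the ends, which are then ligated. The Fanconi anaemia proteins act where the strands are crosslinked, mismatch repair corrects copying errors, and the kinases ATM and ATR with their targets CHK2 and CHK1 halt the cell cycle while damage remains. Many of these genes are known to be transcribed most in dividing cells, under E2F factors, and the developing cortex is known to be sensitive to loss of end joining and of ATR.

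The data were counts per gene, with library totals from 34780003 to 46644607. Levels are given as CPM, the counts of a gene per 1000000 counts of the library, on totals scaled with TMM, which corrects for differences in RNA composition. A gene was called where the edgeR quasi-likelihood test gave a Benjamini-Hochberg adjusted p under 0.05 over all 13560 genes, with no minimum fold. Rad21 itself stood between 450 and 531 CPM in the shNT libraries, between 174 and 187 with shRad21_1 and between 82.0 and 91.2 with shRad21_2. Libraries were unevenly alike. In each of shNT and shRad21_1, replicates 2 and 3 were close (chi-square per gene 3.20 and 2.18, against 23.2 to 70.7 for the other pairs within a group), and shRad21_1 replicate 1 stood apart. Replicates 2 and 3 of shRad21_2 differed from each other along transcript length, as given for the long genes further on. The stem cell genes Nes and Sox2 had at least 44632 and 9839 counts in every library. The microglial genes Cx3cr1 and Aif1 and the mesenchymal gene Dcn were at 0 in all 9, but other markers of these types were not. P2ry12, the 1 microglial gene tested of 6 listed, had 71 to 110 counts in shNT and 10 to 20 with shRad21_2. It was called lower under shRad21_2 (log2 fold change -2.37). The mesenchymal gene Col1a1 had 4 to 32 counts. Over all genes tested, 22.5% were called lower under shRad21_2 and 5.63% under shRad21_1. Under shRad21_2, 5 of 10 stem cell, 4 of 8 neuronal and 4 of 6 oligodendrocyte lineage markers tested were called lower. In the same lists 2, 1 and 1 were called higher. Of 10 astrocyte markers, 8 were called lower under shRad21_2 and 0 under shRad21_1 by edgeR (3 at an unadjusted p under 0.05, and 0 by DESeq2 and limma-voom). Relative to shNT their median log2 level was -1.68 in shRad21_1 replicate 1, -0.17 and -0.07 in the other shRad21_1 libraries, and -2.15 to -2.39 with shRad21_2. In such bulk RNA, fewer cells of a type and less RNA per cell cannot be told apart, and the part of these shifts in the results was not tested.

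Promoter sequences are shown first, because several of these genes share E2F-type words there. The windows come from RefSeq (build GRCm38.p6) and run from 250 bases before to 50 after a gene's start. Of the 38 genes, 29 have a window. Both strands were searched for the E2F words TTTGGCGC, TTTCCCGC, TTTCGCGC and TTTGGCGG, for the NF-Y word CCAAT, and for TTTGAA and TTTAAA, words of the cell cycle homology region. TTTAAA reads the same on both strands, and no word of one factor lies inside a word of another. At least 1 E2F word was found in the windows of 9 of the 29 genes (31.0%), against 4.9% of the 10263 tested genes with a window and 2.7% of all 27025 genes with one. Those 9 were Bard1, Brca2, Chek1, Chek2, Clspn, Fancg, Msh6, Rad51c and Xrcc6. CCAAT was in 17 of 29 (58.6%, against 43.1% of tested genes) and a cell cycle homology word in 3 of 29 (10.3%, against 21.8%). A match describes letters in a window and is not evidence of binding. The 5 windows printed here belong to genes on which the results turn, each on the gene's own strand from 5′ to 3′. Capitals mark the matches, which can read as the reverse complement.

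Parp1 had the largest rise against shNT among the genes with a window, and its window (chr1:180568641-180568940, + strand) holds none of the words. Rad51c had the largest fall. Its gene has 2 windows in the table, and the one at the outermost start (chr11:87404905-87405204, - strand) holds an E2F word from position -5, read on the opposite strand. Rad51ap1 differed most between the hairpins, and its window (chr6:126939538-126939837, - strand) has CCAAT on the opposite strand from -230 and -36. Msh6 (chr17:87974800-87975099, + strand) and Fancg (chr4:43010252-43010551, - strand) are shown as called genes with an E2F word, from 16 and -52, and were picked after their values were seen. Msh6 also has CCAAT on the opposite strand from -34.
Parp1: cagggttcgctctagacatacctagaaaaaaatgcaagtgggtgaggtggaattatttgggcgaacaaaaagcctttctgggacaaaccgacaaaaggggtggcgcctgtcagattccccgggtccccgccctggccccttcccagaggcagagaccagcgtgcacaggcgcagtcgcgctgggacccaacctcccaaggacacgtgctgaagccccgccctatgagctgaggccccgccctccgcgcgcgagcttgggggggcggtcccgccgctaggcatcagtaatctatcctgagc
Rad51c: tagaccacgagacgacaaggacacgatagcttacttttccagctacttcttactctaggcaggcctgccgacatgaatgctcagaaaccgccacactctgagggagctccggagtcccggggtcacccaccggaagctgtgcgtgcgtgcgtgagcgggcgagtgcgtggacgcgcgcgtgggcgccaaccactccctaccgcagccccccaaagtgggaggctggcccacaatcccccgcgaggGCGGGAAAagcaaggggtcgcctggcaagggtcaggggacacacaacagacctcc
Rad51ap1: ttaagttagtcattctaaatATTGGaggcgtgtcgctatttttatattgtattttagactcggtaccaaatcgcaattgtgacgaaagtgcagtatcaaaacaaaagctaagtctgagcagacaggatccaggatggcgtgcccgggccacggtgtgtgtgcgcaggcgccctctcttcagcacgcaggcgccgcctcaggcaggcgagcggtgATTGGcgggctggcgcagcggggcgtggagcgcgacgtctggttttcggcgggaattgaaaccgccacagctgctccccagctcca
Msh6: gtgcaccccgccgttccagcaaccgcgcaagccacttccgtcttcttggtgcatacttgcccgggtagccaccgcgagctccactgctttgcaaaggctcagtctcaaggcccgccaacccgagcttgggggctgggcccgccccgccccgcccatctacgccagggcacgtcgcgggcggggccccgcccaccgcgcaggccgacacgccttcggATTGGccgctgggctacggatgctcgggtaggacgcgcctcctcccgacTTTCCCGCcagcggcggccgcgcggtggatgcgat
Fancg: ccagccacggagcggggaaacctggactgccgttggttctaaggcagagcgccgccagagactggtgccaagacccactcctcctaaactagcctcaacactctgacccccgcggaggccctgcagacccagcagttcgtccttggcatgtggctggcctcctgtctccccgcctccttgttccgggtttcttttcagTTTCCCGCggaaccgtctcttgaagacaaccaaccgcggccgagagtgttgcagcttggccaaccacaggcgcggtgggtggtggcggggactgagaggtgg

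Of the 9 carriers of an E2F word, Msh6 was called higher and Rad51c and Fancg lower under shRad21_2. The other 6 were not called against shNT under either hairpin. Over the 13560 genes, shRad21_2 against shNT gave shares of 21.1% higher and 22.5% lower. Calls in both directions are thus not particular to these 9 carriers. Per kilobase of the longest coding transcript, the highest levels in shNT were those of Parp1 (67.9 CPM per kb), Tipin (38.8), Timeless (26.5) and Msh6 (24.4), and the lowest those of Prkdc (2.16) and Palb2 (2.17). None of the 38 was at 0 anywhere, the lowest count being 288 and the highest 16701.

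The comparison of each hairpin with shNT asks whether repair and checkpoint transcripts differ when Rad21 is lowered. Under shRad21_1, 1 of the 38 genes was called, Rad51c, which was lower. That is 2.63% of the genes, against a share of 9.82% over the 13560 genes (4.19% higher and 5.63% lower). With the replicate number as a block the counts were 1 higher (Msh6) and 0 lower. The median log2 fold change of the 38 was -0.01, and the median of its absolute values 0.09, against 0.18 over all genes tested. Under shRad21_2, 7 of the 38 rose and 2 fell. These 23.7% stand against 43.6% of all genes called, 21.1% higher and 22.5% lower. The median was 0.11, and the median absolute value 0.22, against 0.33 over all genes. The values of the 38 ran from -0.41 to 0.48 under shRad21_2 and from -0.46 to 0.26 under shRad21_1, so no fitted value reached a factor of 1.5 in either direction. Both comparisons share the shNT libraries.

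**Figure D1:**
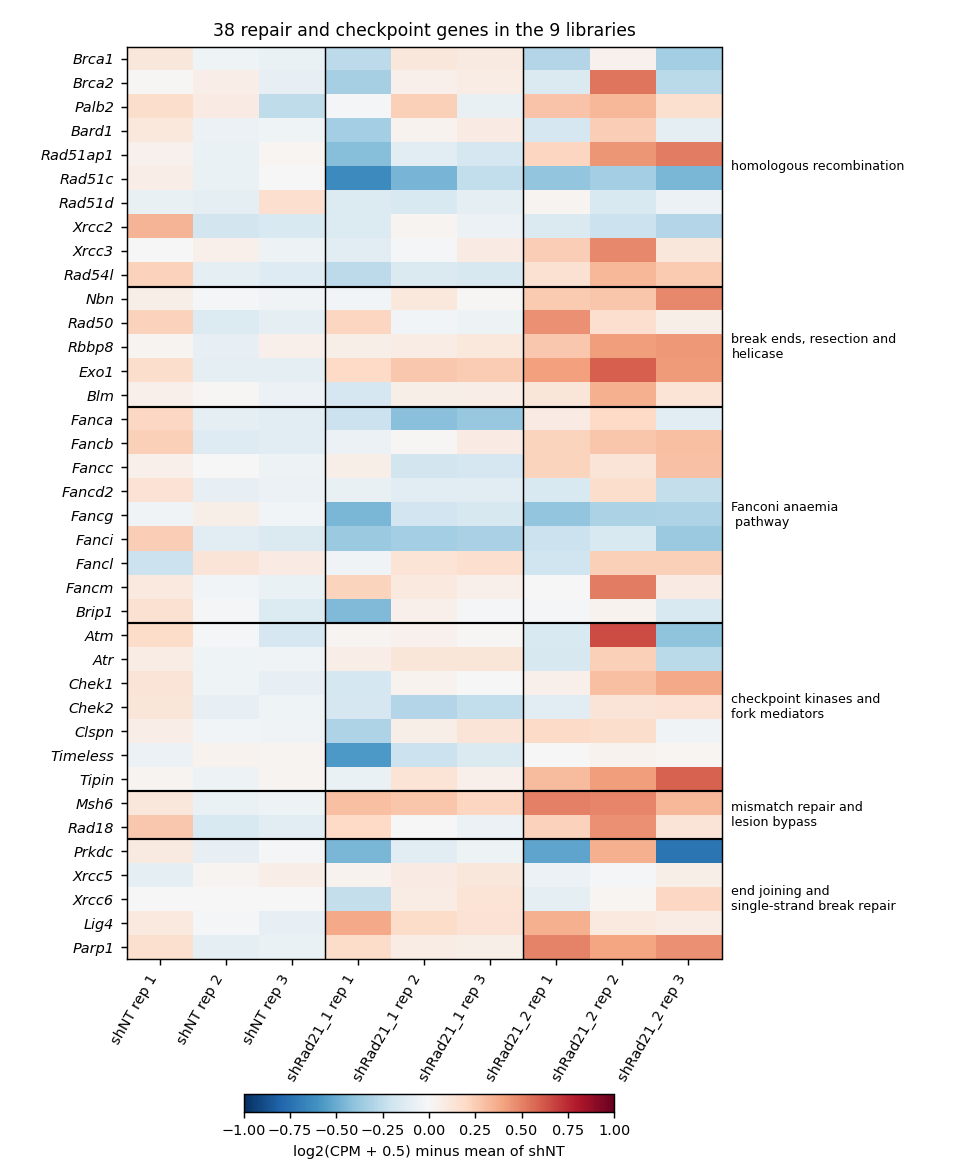
Level of each of the 38 genes (rows, grouped by role) in each of the 9 libraries (columns), as log2(CPM + 0.5) minus the mean of the 3 shNT libraries. Colours stay pale for most genes, with Atm and Prkdc split among the shRad21_2 libraries and Rad51c below shNT in all 6 Rad21 hairpin libraries.

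Among the 10 genes of homologous recombination, 1 rose and 1 fell under shRad21_2, and 1 fell under shRad21_1 (medians 0.04 and -0.07). Each count is 10% of the list. Over all genes, 21.1% rose and 22.5% fell under shRad21_2, and 5.63% fell under shRad21_1. Rad51c, which encodes a protein that assists strand exchange, lies on chromosome 11 from 87376645 to 87404954 of mm10 (ENSMUSG00000007646.13). The shNT libraries had 15.5, 14.02 and 14.7 CPM. It was 9.27, 10.5 and 12.3 CPM with shRad21_1 and 11.1, 11.5 and 10.6 CPM with shRad21_2. All 6 hairpin libraries lay below all 3 controls. The log2 fold change was -0.46 for shRad21_1 (SE 0.12, edgeR adjusted p = 0.0402) and -0.41 for shRad21_2 (SE 0.12, edgeR adjusted p = 0.0194). Its shRad21_1 call did not survive several alternatives: it was lost with the replicate number as a block (-0.47, adjusted p = 0.054) and without any shNT library, shRad21_1 replicate 1 or 2, or shRad21_2 replicate 3, with values from -0.50 to -0.37. The call under shRad21_2 was lost without shNT replicate 1 or 3 or shRad21_2 replicate 3 (-0.38, -0.41 and -0.38).

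Rad51ap1 encodes a protein that stimulates strand pairing. It stood at 29.9, 27.5 and 29.4 CPM under shNT, 21.4, 26.7 and 25.7 CPM for shRad21_1, and 33.5, 39.4 and 41.4 CPM with shRad21_2. The groups did not overlap, with shRad21_1 lowest and shRad21_2 highest. It rose under shRad21_2 (log2 fold change 0.40, SE 0.11, edgeR adjusted p = 0.0166), and the value under shRad21_1 was -0.23 (SE 0.11, edgeR adjusted p = 0.218). The rise lost its call without shNT replicate 2 (0.36), shNT replicate 3 (0.41) or shRad21_2 replicate 3 (0.33). Rad54l, a translocase that acts during strand invasion, was measured at 38.1, 30.4 and 29.6 CPM under shNT, 27.1, 29.3 and 29.0 for shRad21_1 and 36.1, 41.0 and 39.0 with shRad21_2. Its shRad21_2 libraries overlapped shNT replicate 1 (0.24, edgeR adjusted p = 0.0959), and without that library it was called higher (0.37, adjusted p = 0.0146).

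Brca1 and Brca2, the tumour suppressors that guide recombination at broken ends, were not called. Brca1 ranged from 69.9 to 79.2 CPM in shNT, from 61.1 to 79.0 with shRad21_1 and from 57.6 to 75.4 with shRad21_2, overlapping in each case. Its value under shRad21_2 was -0.19, with a 95% interval of the fit from -0.48 to 0.10, and -0.32 without shRad21_2 replicate 2 (adjusted p = 0.0614 in edgeR). That fit kept replicate 3, which differed from replicate 2 along transcript length. Brca2 had 0.08 with an interval from -0.36 to 0.52, so changes of moderate size in either direction remain inside it. Palb2 (0.27), Bard1 (0.00), and the recombination genes Rad51d (-0.06), Xrcc2 (-0.24) and Xrcc3 (0.30, adjusted p = 0.0686 in edgeR) likewise did not pass under shRad21_2. Under shRad21_1 the 9 genes not called had values between -0.23 and 0.05.

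Of the 5 genes for break ends, resection and unwinding, 3 rose and 0 fell under shRad21_2 (median 0.35), in a comparison that called 43.6% of all genes. Under shRad21_1 edgeR called 0 of the 5, beside 9.82% of all genes. Of these 5, 1 was at an unadjusted p under 0.05, and DESeq2 and limma-voom called 0. Nbn encodes nibrin of the MRN complex, which senses broken ends. Its levels were 43.5, 41.3 and 40.9 CPM under shNT, 41.0, 45.1 and 42.3 for shRad21_1, and 50.3, 50.9 and 58.7 with shRad21_2. All shRad21_2 libraries lay above the other 6 (log2 fold change 0.35, SE 0.09, edgeR adjusted p = 0.00877). Rbbp8 encodes CtIP, which starts resection. It was at 48.3, 44.9 and 49.3 CPM under shNT, at 49.3, 49.9 and 51.2 for shRad21_1, and at 57.2, 63.7 and 64.3 with shRad21_2. It rose by the same pattern (0.38, SE 0.08, edgeR adjusted p = 0.00324).

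Exo1, an exonuclease of long-range resection that also serves mismatch repair, had the largest value of the 38 against shNT. It was measured at 40.6, 33.6 and 33.7 CPM under shNT, at 41.2, 43.2 and 42.8 for shRad21_1, and at 47.6, 54.3 and 48.1 with shRad21_2. Every library of either hairpin lay above every shNT library. The rise passed under shRad21_2 (log2 fold change 0.48, SE 0.10, edgeR adjusted p = 0.00328) but not under shRad21_1 (0.24, SE 0.10, adjusted p = 0.151). With replicate 1 of both shNT and shRad21_1 removed, Exo1 was called higher under shRad21_1 (0.35, edgeR adjusted p = 0.0388). Rad50, the ATPase of the MRN complex, had a value of 0.23 under shRad21_2 and Blm, the Bloom helicase that dissolves recombination intermediates, 0.21. Neither passed. Rad50 was called with replicate 1 of both shNT and shRad21_1 removed (0.36, edgeR adjusted p = 0.0312). It was also called with the replicate number as a block (0.23, edgeR adjusted p = 0.0338).

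Of the 9 Fanconi genes, 1 fell (11.1%) and 0 rose under shRad21_2 (median 0.06), beside 22.5% and 21.1% of all genes. Under shRad21_1 edgeR called 0 (median -0.10), beside 9.82% of all genes. Of the 9, 3 were at an unadjusted p under 0.05, DESeq2 called 1 and limma-voom 0. Fancg, a subunit of the core complex that ubiquitinates FANCD2 and FANCI, stood at 13.4, 14.4 and 13.6 CPM under shNT, at 9.89, 12 and 12.3 for shRad21_1 and at 10.4, 11.0 and 11.0 with shRad21_2. All 6 hairpin libraries were below the controls. The fall passed under shRad21_2 (-0.35, SE 0.11, edgeR adjusted p = 0.0274) and the value under shRad21_1 was -0.28 (SE 0.11, adjusted p = 0.149). It lost its call without shNT replicate 2 (-0.32), shNT replicate 3 (-0.37), shRad21_2 replicate 1 (-0.33) or shRad21_2 replicate 3 (-0.37).

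Fanci, a substrate of that complex, also had all hairpin libraries below all controls: 47.4 to 62.1 CPM in shNT, 40.4 to 41.7 with shRad21_1 and 40.3 to 47.2 with shRad21_2. It passed neither test (-0.36, edgeR adjusted p = 0.0718, and -0.26, adjusted p = 0.0886), and DESeq2 called it under shRad21_1. Its paired substrate Fancd2 had values of -0.10 and -0.07. The core subunit Fanca, at 32.0, 25.8 and 25.4 CPM under shNT, 23.7, 20.5 and 21.1 for shRad21_1 and 29.2, 31.8 and 25.6 with shRad21_2, was lower in every shRad21_1 library than in every control without passing (-0.35, adjusted p = 0.102 in edgeR). Fancc, another core subunit, was at 19.6, 18.9 and 18.2 CPM under shNT, at 19.8, 16.6 and 16.8 for shRad21_1, and at 22.1, 20.7 and 23.3 with shRad21_2. Its shRad21_2 libraries lay above the rest (0.22, adjusted p = 0.0964 in edgeR). Fancb, the ubiquitin ligase Fancl, the translocase Fancm and the helicase Brip1 had values from -0.05 to 0.27 under shRad21_2 and from -0.12 to 0.12 under shRad21_1, and none passed. Because the strand setting of the counting is not given, reads of genes with antisense neighbours cannot be separated. Exons on the opposite strand overlap 17.0% of the exon bases of Fancl (Vrk2), 13.4% of Fanci (Polg), 8.6% of Fanca (Zfp276) and 8.5% of Xrcc6 (Desi1).

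Checkpoint kinases were not called against shNT, whereas a fork protein was. Of these 7 genes, Tipin alone rose (14.3%) under shRad21_2 and 0 fell (median 0.10), beside 21.1% and 22.5% of all genes. Under shRad21_1 edgeR called 0 (median -0.03), beside 9.82% of all genes. Of the 7, 2 were at an unadjusted p under 0.05, and DESeq2 and limma-voom called 0. Tipin and its partner Timeless travel with the replication fork and help CLASPIN activate CHK1. Tipin was at 72.6, 69.0 and 72.6 CPM under shNT, at 68.0, 78.4 and 74.1 for shRad21_1, and at 89.0, 95.7 and 107 with shRad21_2. The shRad21_2 libraries lay above all others (log2 fold change 0.45, SE 0.09, edgeR adjusted p = 0.00258). Timeless was at 113, 121 and 120 CPM under shNT, at 79.2, 101 and 106 for shRad21_1, and at 117, 121 and 120 with shRad21_2. Its shRad21_1 libraries were below the rest without passing (-0.30, edgeR adjusted p = 0.0917).

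The kinase genes gave intervals of different width. Chek1 had a value of 0.25 under shRad21_2 (95% interval 0.01 to 0.49, edgeR adjusted p = 0.0865) and Clspn 0.11 (-0.14 to 0.37). Chek2 stood at 32.1, 27.9 and 28.7 CPM under shNT, at 26.2, 24.01 and 24.9 for shRad21_1, and at 27.4, 32.3 and 32.7 with shRad21_2. Its values were -0.24 (edgeR adjusted p = 0.153) and 0.06 (adjusted p = 0.656). Atr had -0.05 (-0.33 to 0.23) and Atm 0.10 (-0.40 to 0.60), where the wide interval follows a wide spread among the shRad21_2 libraries.

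Of the remaining 7 genes, 2 rose under shRad21_2, in a comparison that called 21.1% of all genes higher. Msh6 encodes a protein that senses mismatches and is the only dedicated mismatch gene among the 38. It was at 112, 98.8 and 99.6 CPM under shNT, at 128, 125 and 120 for shRad21_1, and at 147, 145 and 130 with shRad21_2. The groups did not overlap. It rose under shRad21_2 (log2 fold change 0.44, SE 0.08, edgeR adjusted p = 0.00153), and under shRad21_1 the value of 0.26 missed the threshold (adjusted p = 0.0615), passing it with the replicate number as a block (0.26, adjusted p = 0.0469). Rad18, a ubiquitin ligase of lesion bypass, had 0.27 under shRad21_2 (adjusted p = 0.138 in edgeR), and 0.42 without shNT replicate 1 (adjusted p = 0.0283).

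Parp1, the main poly(ADP-ribose) polymerase that signals strand breaks, was at 293, 245 and 251 CPM under shNT, at 298, 275 and 273 for shRad21_1, and at 370, 345 and 360 with shRad21_2. All shRad21_2 libraries exceeded the other 6 (log2 fold change 0.45, SE 0.08, edgeR adjusted p = 0.00207). The end joining genes did not pass. The Ku subunits Xrcc5 and Xrcc6 had -0.01 (95% interval -0.18 to 0.16) and 0.05 (-0.19 to 0.29) under shRad21_2, and the ligase gene Lig4 0.19 (-0.07 to 0.44). Prkdc, the catalytic subunit recruited by Ku, had -0.23 (-0.78 to 0.33).

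**Figure D2:**
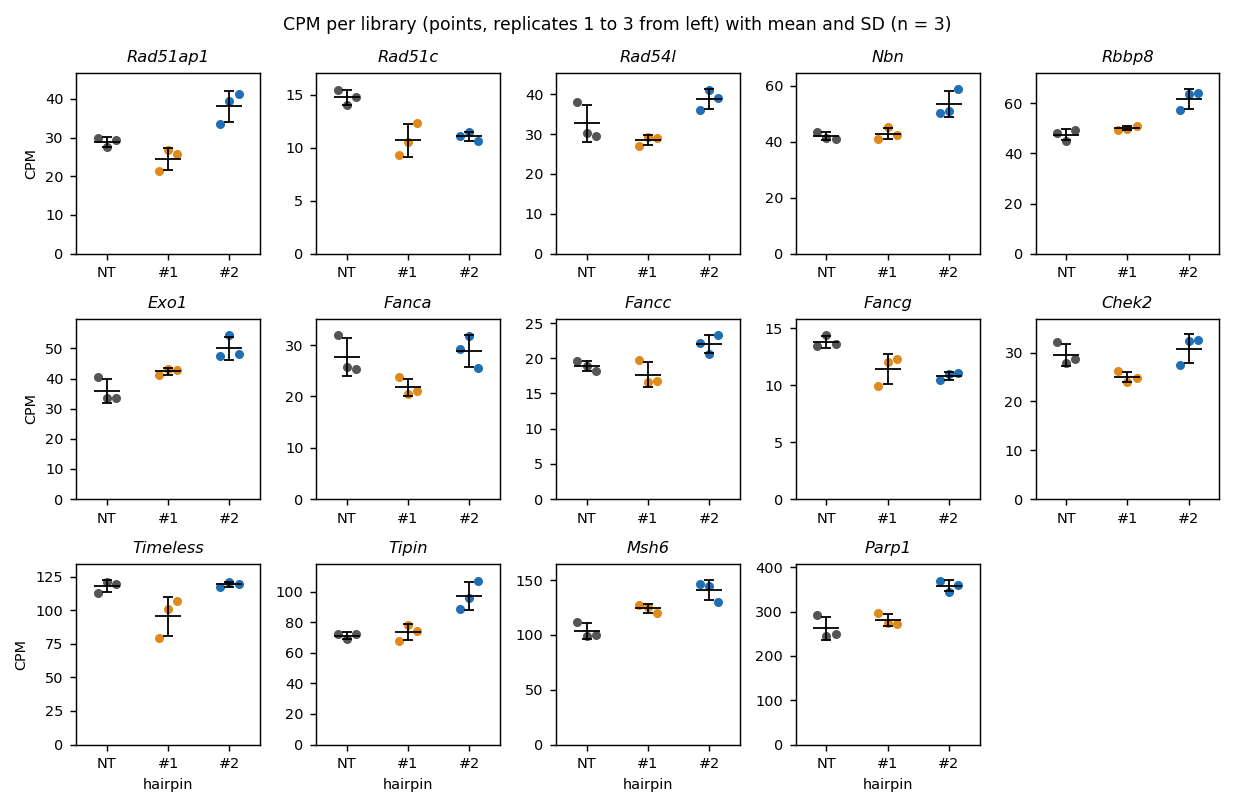
CPM in each library (points, replicates 1 to 3 from left) with mean and SD (n = 3) for the 14 genes called in at least 1 of the 3 comparisons, under the non-targeting hairpin (NT), shRad21 #1 and shRad21 #2. Exo1, Msh6, Tipin, Parp1, Nbn and Rbbp8 have all shRad21_2 points above all shNT points, and Rad51c and Fancg all of them below.

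The 5 genes Rbbp8, Exo1, Tipin, Msh6 and Parp1 were called under shRad21_2 in all 19 alternatives, with values from 0.30 to 0.57. Nbn was called in 18 of 19 and missed only with the close pairs of libraries summed (0.33, adjusted p = 0.0657). In that alternative Rad51ap1 (0.38), Rad51c (-0.43) and Fancg (-0.35) were not called either, 5 of the 38 rose and 0 fell, and with replicate 1 of both shNT and shRad21_1 removed 12 rose and 2 fell. Leaving out shNT replicate 1 also brought a call of Fancb (0.40), and leaving out shRad21_2 replicate 1 a call of Chek1 (0.34). Of 34 replication genes listed, 9 rose and 0 fell under shRad21_2, which is 26.5% beside 43.6% of all genes called and 21.1% called higher. Relative to shNT their median log2 level was 0.14, 0.17 and 0.26 in the 3 shRad21_2 libraries and -0.22, -0.02 and -0.04 with shRad21_1. For 28 mitosis genes the medians were 0.27, -0.15 and -0.14 in the shNT libraries themselves, 0.22, -0.14 and -0.12 with shRad21_1 and 0.41, 0.33 and 0.37 with shRad21_2, and 12 of the 28 (42.9%) rose under shRad21_2 and 0 fell. For the 38 repair genes they were 0.10, -0.05 and -0.06, then -0.12, 0.04 and 0.01, then 0.04, 0.24 and 0.08. The part of cell cycle differences in the repair genes was not tested.

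The direct comparison of the hairpins asks what differs when the control is left aside. Between shRad21_2 and shRad21_1, 10 of the 38 were higher and 0 lower (26.3%). Over the 13560 genes the share was 26.3%, made up of 11.9% higher and 14.4% lower. The share called thus equals the background, while all 10 calls lay on the side of shRad21_2. The median log2 fold change of the 38 was 0.16, with 31 of them above 0, against -0.00 over all genes. Rad51ap1 had the largest difference (0.63, SE 0.11, edgeR adjusted p = 0.00371), followed by Rad54l (0.44, SE 0.11, adjusted p = 0.016), Tipin (0.41, SE 0.09, adjusted p = 0.00864) and Fanca (0.41, SE 0.12, adjusted p = 0.0351). Parp1 (0.34), Nbn (0.32), Fancc (0.32), Timeless (0.32), Rbbp8 (0.30) and Chek2 (0.30) also passed. By role these were 2 of 10 recombination, 2 of 5 resection, 2 of 9 Fanconi, 3 of 7 checkpoint and 1 of 5 end joining and strand break genes.

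Only Rad51ap1 among the 10 was called in every alternative. Rad54l and Tipin were lost with the close pairs summed (0.46 and 0.43), and in that setting 1 of the 38 was higher. The count was 4 when only these 2 groups were fitted, 4 without shRad21_1 replicate 2, 4 without shRad21_1 replicate 3, 5 without shRad21_2 replicate 3, 6 without shNT replicate 2 and 6 on library totals alone. Timeless, low in shRad21_1 replicate 1, had 0.20 without that library. Rad51c, lower under both hairpins, did not differ detectably between them (0.05, 95% interval -0.22 to 0.32).

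**Figure D3:**
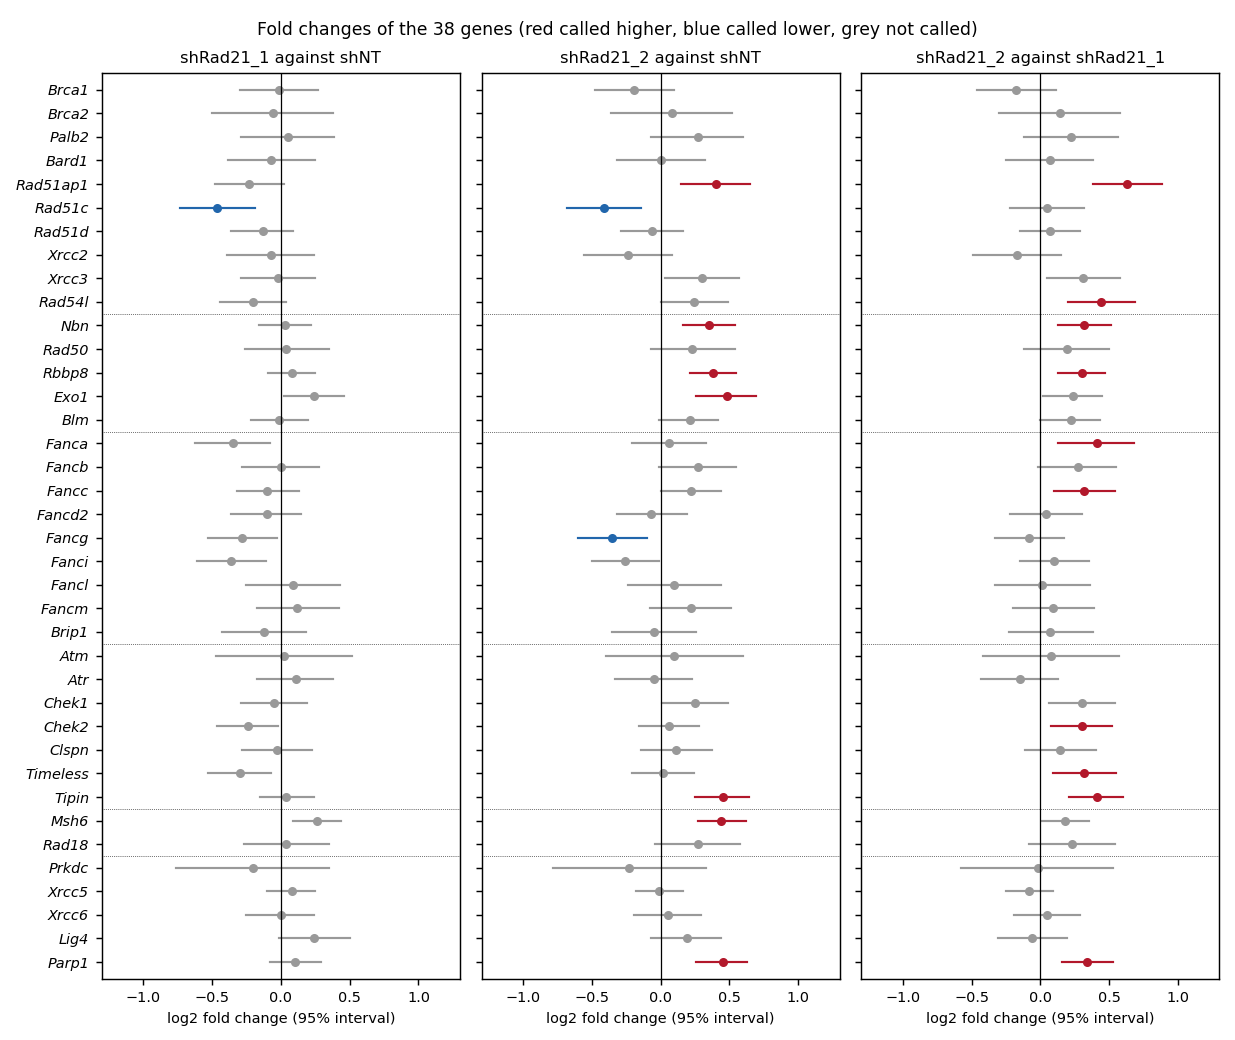
Fitted log2 fold change (point) and 95% interval (line) of each of the 38 genes in the 3 comparisons, from the single fit of all 9 libraries. Calls are few at the left (Rad51c alone), 7 higher and 2 lower in the middle, and 10 higher and 0 lower at the right, and all points lie between -0.46 and 0.63.

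Ratios of partner genes within a library do not depend on how libraries are scaled. They can still carry differences along transcript length where partners differ in length. Timeless and Tipin have 4.46 and 1.84 kb, and Brca2 and Palb2 10.7 and 3.75 kb. The part of length in these ratios was not tested. For 6 pairs of genes whose proteins work together, the ratio of counts was compared in the 3 comparisons, 18 exact two-sided permutation tests in all, where 3 libraries against 3 cannot give a p below 0.1. The ratio of Timeless to Tipin was 1.56, 1.75 and 1.65 in shNT, 1.16, 1.29 and 1.44 with shRad21_1, and 1.32, 1.26 and 1.11 with shRad21_2. Every hairpin library was below every control (log2 differences -0.35 and -0.43, exact p = 0.1 each, 0.36 adjusted over the 18). Under shRad21_1 Timeless was the gene with the lower level, and under shRad21_2 Tipin the one with the higher level. Brca1 to Bard1, the subunits of a ubiquitin ligase, had ratios of 2.84, 2.87 and 2.80 in shNT, 3.01, 2.99 and 2.85 with shRad21_1, and 2.61, 2.47 and 2.39 with shRad21_2. The shRad21_2 ratios lay below all others (log2 difference -0.19 from shNT, exact p = 0.1, adjusted 0.36). Fancd2 to Fanci was higher in every shRad21_1 library than in shNT (0.25, exact p = 0.1, adjusted 0.36). The ratios Brca2 to Palb2, Xrcc5 to Xrcc6 and Nbn to Rad50 overlapped between each hairpin and shNT, with log2 differences from -0.24 to 0.11 (exact p from 0.3 to 1).

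**Figure D4:**
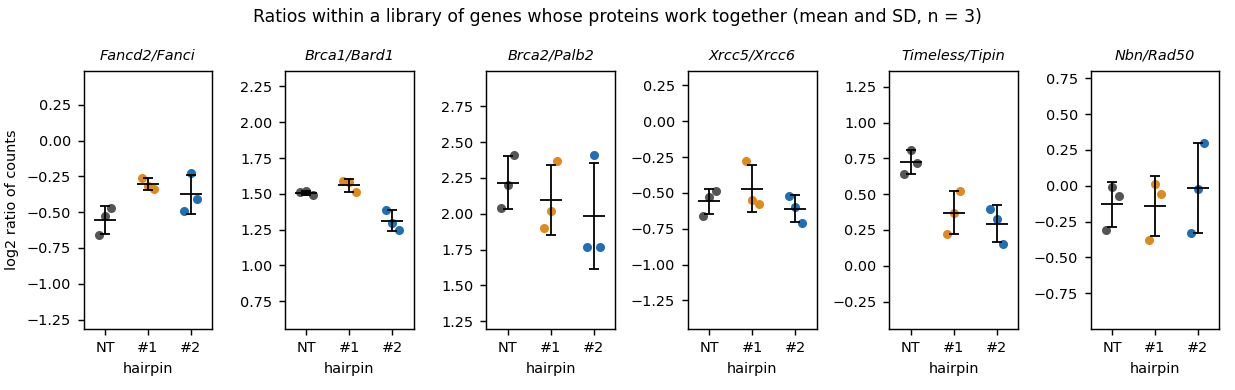
Log2 ratio of the counts of 2 partner genes in each library (points) with mean and SD (n = 3) for 6 pairs, each panel spanning the same range of log2 units. Timeless/Tipin lies at 0.64 to 0.81 in shNT and at 0.15 to 0.52 with either hairpin, and Brca2/Palb2 spreads from 1.77 to 2.41 within shRad21_2.

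Several of the best known genes, with long transcripts, varied widely among the shRad21_2 libraries. Atm was at 56.2, 98.1 and 47.2 CPM in the 3 shRad21_2 libraries, Prkdc at 18.7, 35.1 and 16.2, and Brca2 at 33.8, 54.5 and 31.0. In each, replicate 2 stood well above replicates 1 and 3. The ratio of replicate 2 to replicate 3 was 2.17 for Prkdc, 2.08 for Atm, 1.76 for Brca2, 1.43 for Atr and 1.35 for Fancm, whose longest coding transcripts run from 7775 to 12647 bases, and 0.89 for Tipin, with the shortest of the 38 (1841 bases). Exo1 and Brip1, with 7796 and 6931 bases, had ratios of 1.13 and 1.14. Across the 38 genes, the log2 difference of shRad21_2 replicate 2 from the other libraries of its group went with log2 transcript length at r = 0.71, and that of replicate 3 at r = -0.79. In the other 7 libraries r was between -0.27 and 0.19. These genes share their libraries and are no independent points. Leaving out shRad21_2 replicate 2 keeps replicate 3, whose differences went the opposite way with length. Values of these genes without replicate 3 are not given here. Without shRad21_2 replicate 2, Prkdc was called lower than in shNT (-0.64, edgeR adjusted p = 0.00789), against -0.23 with it. Atm then had -0.28 (adjusted p = 0.0877) against 0.10, Brca2 -0.21 (adjusted p = 0.238) against 0.08, Atr -0.22 (adjusted p = 0.0668) against -0.05, and Fancm 0.04 (adjusted p = 0.75) against 0.22. The part of transcript length in these values was not tested.

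**Figure D5:**
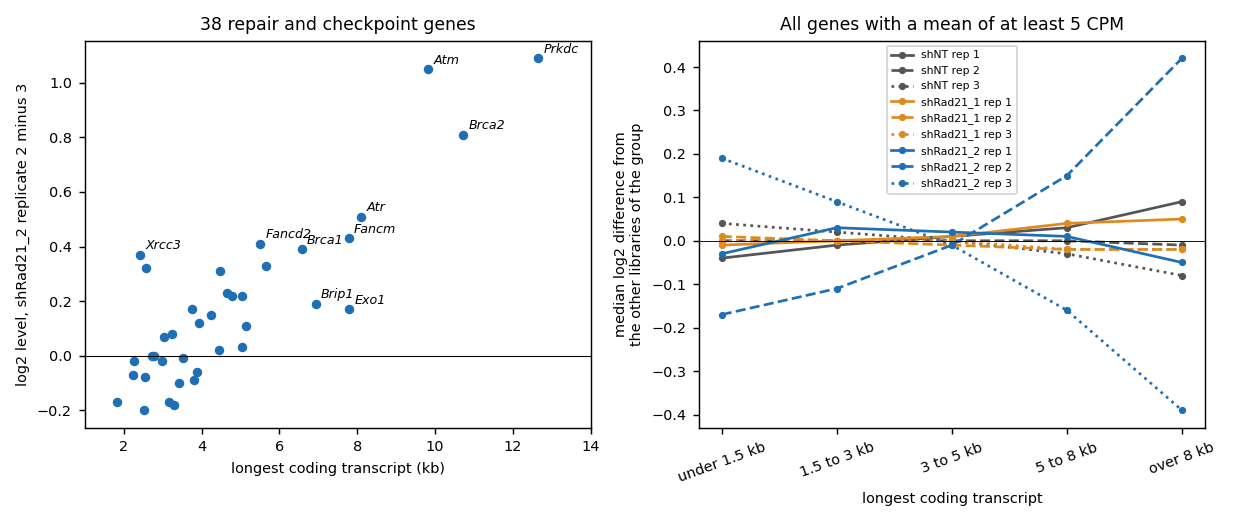
Left, log2 level in shRad21_2 replicate 2 minus replicate 3 against the longest coding transcript (kb) for the 38 genes, from -0.20 to 1.09 with Prkdc and Atm at the top. Right, the median log2 difference of each library from the other libraries of its group, by transcript length, for all genes with a mean of at least 5 CPM: shRad21_2 replicates 2 and 3 diverge to 0.42 and -0.39 over 8 kb.

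Other genes of the same pathways, from 5 lists of 121 genes in all, were read in the same fit. Under shRad21_2 the shares called were 24.3% for recombination, 29.4% for Fanconi, 50% for mismatch repair, 44.4% for checkpoint and 25% for end joining and strand break genes, beside 43.6% of all genes. Of 37 other recombination genes tested, 7 rose and 2 fell under shRad21_2 (median 0.07). In shRad21_2 against shRad21_1, 4 were higher (10.8%) and 0 lower, beside 11.9% and 14.4% of all genes. Mnd1, a cofactor of strand exchange, rose from 2.52 ± 0.567 to 4.50 ± 0.692 CPM (SD, n = 3 each; log2 fold change 0.84, edgeR adjusted p = 0.00815), Rad52, a strand annealing protein, rose by 0.46, and the helicase gene Recql5 fell by 0.33. With the close pairs summed, Mnd1 (0.76) and Recql5 (-0.32) were no longer called. Of 17 other Fanconi genes, 5 rose and 0 fell (median 0.27). Usp1, the protease that removes ubiquitin from FANCD2, rose from 179 ± 11.5 to 251 ± 15.8 CPM (0.49, edgeR adjusted p = 7.27e-04) and its cofactor Wdr48 by 0.27, lost with the close pairs summed (0.27, adjusted p = 0.0667). The translesion polymerase gene Rev1 rose under both hairpins (0.44 and 0.48), but leaving out shNT replicate 2 (0.47) or 3 (0.44), or summing the close pairs (0.49), ended the shRad21_1 call. Exons of the opposite strand overlap 29.1% of the exon bases of Rev1 and 25.8% of those of Wdr48.

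Of 8 other mismatch repair genes, 2 rose and 2 fell under shRad21_2 (25% each way, beside 21.1% and 22.5% of all genes). Mlh3, a mismatch repair factor, was lower under each hairpin, at 17.7 ± 1.27 CPM in shNT, 12.8 ± 0.0995 under shRad21_1 and 9.67 ± 0.102 with shRad21_2 (SD, n = 3). Its log2 fold changes were -0.47 (edgeR adjusted p = 0.0132) and -0.87 (adjusted p = 9.18e-05), and the hairpins differed by -0.40 (adjusted p = 0.0132). Its shRad21_1 call ended without shNT replicate 2 (-0.50) or shRad21_1 replicate 3 (-0.47), and that between hairpins without shRad21_1 replicate 2 (-0.40). Both ended with the close pairs summed (-0.50, adjusted p = 0.145, and -0.40, adjusted p = 0.0902, in edgeR). Pms2, another such factor, rose by 0.41 and Msh3, which senses small loops of unpaired bases, by 0.25 under shRad21_2. The call of Msh3 was lost without shNT replicate 2 (0.25) or 3 (0.22), on library totals alone (0.18) and with the close pairs summed (0.24).

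Of 27 other checkpoint genes, 10 rose and 2 fell under shRad21_2, and 2 rose and 1 fell under shRad21_1 (11.1%, beside 9.82% of all genes). The phosphatase gene Cdc25a, whose product is a target of CHK1, rose from 48.5 ± 4.55 CPM in shNT to 65.2 ± 0.728 with shRad21_1 and 90.6 ± 2.80 with shRad21_2 (SD, n = 3; 0.43 and 0.90, edgeR adjusted p = 0.00981 and 2.86e-05). Its relative Cdc25b fell by 0.51 under shRad21_1 (adjusted p = 0.0121 in edgeR) and had -0.15 under shRad21_2. Trp53, the gene of p53, rose from 124 ± 3.02 to 212 ± 21.1 CPM under shRad21_2 (0.78, edgeR adjusted p = 2.29e-04), and Telo2, which stabilises ATM and ATR, by 0.56. The phosphatase gene Ppm1d rose by 0.28 and 0.26 under the 2 hairpins. The calls of Cdc25a (0.37 and 0.41), Cdc25b (-0.49 and -0.52) and Ppm1d (0.27 and 0.30) under shRad21_1 were lost when either shNT replicate 2 or 3 was left out, and that of Ppm1d also without shNT replicate 1 (0.28) or any shRad21_1 library (0.26, 0.30 and 0.29). With the close pairs summed, Cdc25a (0.40), Cdc25b (-0.55) and Ppm1d (0.29) were not called under shRad21_1. The call of Ppm1d under shRad21_2 was lost without shNT replicate 2 (0.25) and with the close pairs summed (0.26). Of 24 p53 targets listed, 8 rose and 3 fell under shRad21_1 (45.8%, beside 9.82% of all genes) and 7 rose and 6 fell under shRad21_2 (54.2%, beside 43.6%). Their median level relative to shNT was 0.90 in shRad21_1 replicate 1, the library that stood apart, and 0.22 and 0.29 in replicates 2 and 3.

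Of 24 other end joining and strand break repair genes, 4 rose and 2 fell under shRad21_2. Parp3, a relative of Parp1, went from 16.5 ± 5.03 CPM in shNT to 5.03 ± 1.68 with shRad21_2 (SD, n = 3), a fall of 1.71 on the log2 scale (SE 0.29, edgeR adjusted p = 0.00116). It is the largest change against shNT among all the repair genes named here, and opposite to that of Parp1. Xrcc1, the scaffold of single-strand break repair, rose by 0.44, and Apex1, which cleaves abasic sites, by 0.43. Exons of Pip4p1 on the opposite strand overlap 70.8% of the exon bases of Apex1, so its reads are uncertain, and its call was lost with the close pairs summed (0.41, adjusted p = 0.0579). Under shRad21_1 edgeR called 0 of these 24 and 0 of the 37 other recombination genes, beside 9.82% of all genes. In these lists 3 and 4 were at an unadjusted p under 0.05, and DESeq2 and limma-voom called 0 in either.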

How the data were processed

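RNA-seq counts per gene were taken from the authors' deposited table, which holds whole numbers for 24503 genes in 9 libraries. Per the submitters' processing notes the tools were FastQC, Trim Galore, cutadapt, Bowtie2 and RSEM with build mm10. RSEM gives estimates that need not be whole, so the deposited counts may have been rounded. No source used here gives the strand setting. Genes passing edgeR's filterByExpr (13560) were scaled with TMM and fitted over all 9 libraries with 3 group means, using edgeR 4.0.16 (glmQLFit and glmQLFTest) in R 4.3.3 and Benjamini-Hochberg adjustment at 0.05. The standard error is the absolute log2 fold change divided by the square root of F. DESeq2 1.42.0, limma-voom 3.58.1 and the other alternatives kept the remaining choices. The fits were tested on simulated data with known changes, for each hairpin against shNT. For shRad21_1 and shRad21_2, 2.99% and 4.48% of 1.25-fold changes were recovered, and 37.3% and 40.3% of 1.5-fold changes. A gene not called may thus still differ by such amounts. Each of these sizes had 67 changed genes, far fewer than were called in the data, so the shares may not carry over.

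The 38 genes, the role lists and the other lists were chosen with earlier results of these data known. Values in every library are given for each member called in any comparison. From each of the 5 other lists the 3 genes with the smallest p in shRad21_2 against shNT and those called under shRad21_1 were named, 17 in all.

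Same-numbered libraries of shNT and shRad21_1 deviated together (r = 0.242, 0.116 and 0.117), so the blocked values are given there, although shNT 2 with shRad21_1 3 (0.16) and shNT 3 with shRad21_1 2 (0.154) went together more closely. For shNT and shRad21_2 r was 0.064, 0.078 and 0.083, and differently numbered pairs ran from -0.063 to -0.013. For the hairpins r was 0.089, 0.017 and 0.018, and differently numbered pairs ran from -0.076 to 0.064. These same-numbered values lie under the minimum of 0.1 set for giving blocked values. There, blocked values are given only for Rad50 and as counts of calls.

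Positions and transcript lengths come from GENCODE M21 and promoter windows from RefSeq. Values of some other repair genes are not reported here.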

Additional observations from a re-analysis of the deposited data

Results flagged for a closer look

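In 6 of the 38 genes the hairpins differed in the direct edgeR test while their values against shNT had opposite signs. The differences, shRad21_2 minus shRad21_1 on the log2 scale, were 0.63 for Rad51ap1, 0.44 for Rad54l, 0.41 for Fanca, 0.32 for Fancc, 0.32 for Timeless and 0.30 for Chek2. Against shNT, Rad51ap1 alone of these was called, under shRad21_2. Several of the opposite signs rest on small values that were not called. Under shRad21_2, Timeless had 0.02, Fanca 0.06 and Chek2 0.06 (edgeR adjusted p = 0.916, 0.721 and 0.656). Under shRad21_1, Fancc had -0.10 (edgeR adjusted p = 0.59). The share of all genes with this pattern is not given here. The call between hairpins held in all 19 alternatives for Rad51ap1, in 18 for Rad54l, in 11 for Fanca, in 8 for Fancc, and in 7 each for Chek2 and Timeless. Rad21 itself was lower under shRad21_2 than under shRad21_1 (-1.08, edgeR adjusted p = 5.55e-05), and 14 of 34 replication genes were higher (41.2%, beside 11.9% of all genes), 0 lower. Their part in these differences was not tested.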

How the results depend on the processing

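No member call changed sign in any of the 19 alternatives, and among values not called 37, 23 and 30 changed sign in the 3 comparisons. Under shRad21_1 (1 member lower, 0 higher, 1331 genes in all), 0 were lower with no filter, with only the 2 groups fitted, with the close pairs summed and without the first libraries, and 2 with DESeq2. Then 1 was higher with DESeq2, with the 2 groups and without the first libraries. All genes called came to 2042 with DESeq2 and 130 with the close pairs summed, where fewer libraries were fitted. Leaving out a library gave 0 to 1 higher, 0 to 1 lower and 460 to 1599 genes. With the replicate number as a block 1 was higher, 0 lower and 1436 genes were called. Under shRad21_2 the block gave 8 higher, 2 lower and 6066 genes, and between hairpins 9 higher, 0 lower and 3643. The added call under shRad21_2 was Rad50 (0.23, edgeR adjusted p = 0.0338). Same-numbered libraries of shNT and shRad21_2 deviated together only weakly (r from 0.064 to 0.083). Under shRad21_2 (7 higher, 2 lower, 5917 genes), the summed pairs gave 0 lower and 3707 genes, and 12 were higher without the first libraries. Leaving out a library gave 6 to 10 higher, 0 to 3 lower and 4263 to 6858 genes. Between the hairpins (10 higher, 0 lower, 3563 genes), 6 were higher on library totals alone, 4 with 2 groups (2233 genes) and 1 with summed pairs (1270 genes), and leaving out a library gave 4 to 9 higher, 0 to 1 lower and 2045 to 4486 genes. Where no cause follows from the construction, the cause was not tested. Scaling on library totals moved the median of all genes by -0.014, -0.073 and -0.058.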

Other observations

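The length pattern of shRad21_2 replicates 2 and 3 was not limited to repair genes. Over 9955 genes with a mean of at least 5 CPM, the log2 difference of a library from the others of its group went with log2 transcript length at r = 0.57 in replicate 2 and -0.60 in replicate 3, against -0.21 to 0.13 in the other 7 libraries. The median difference of genes under 1.5 kb was -0.17 in replicate 2 and 0.19 in replicate 3. Among genes over 8 kb it was 0.42 and -0.39. These are correlations across genes, which are not independent replicates.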
